A study of Mus musculus with 20 samples.

Results

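The genes described here carry out the last steps of carbohydrate digestion in the mouse small intestine and the uptake and first use of the sugars released. They were Sis, Lct, Treh and Mgam, which encode the disaccharidases of the brush border, Slc5a1, Slc2a2 and Slc2a5, which encode sugar transporters of the enterocyte, and Khk, which encodes the first enzyme of fructose breakdown. A probe was included when the gene name printed for it in the array files equalled one of these symbols, whatever its measured values. The genes themselves were chosen with earlier results of these data known. All 8 genes were on the array, through 11 of its 56605 probes, among 25043 genes that could be named.

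Starch and dietary disaccharides cannot cross the gut wall until enzymes anchored in the microvilli of mature enterocytes split them into glucose, galactose and fructose. Glucose and galactose then enter the cell with sodium, fructose enters by facilitated diffusion, and both routes lead to the portal blood or to metabolism inside the cell. The genes are switched on as cells leave the crypt and mature along the villus, and their transcription is known to depend on CDX2, GATA4 and HNF4 proteins, among others.

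RNA from small intestinal tissue was hybridised to 1-colour Agilent arrays, 1 array for each of 20 mice, and the study asked what the oncogenic form of the kinase BRAF does to the intestinal epithelium and which part of this passes through MEK, the kinase downstream of it. The BRAFV600E group (n = 6) carried VillinCreER/0 and BrafV600E-LSL/+, an allele that is expressed only after Cre removes a stop cassette, and the Cre control group (n = 6) carried VillinCreER/0 alone. Both were given 3 daily doses of 2 mg tamoxifen and the tissue was taken 3 days after the last, so the controls shared the Cre and the tamoxifen. The MEKi group (n = 4) received 3 daily injections of the MEK inhibitor PD184352 after 2 tamoxifen injections, and the Vehicle group (n = 4) received the solvent, 10% DMSO and 10% Cremophor EL, on the same plan. The mice were adults of 8 to 12 weeks on a C57BL6/j background. That the MEKi and Vehicle mice also carried the BRAFV600E allele is given by the study's methods and not by the sample labels. The Villin promoter limits recombination to the gut epithelium, whereas the RNA came from whole pieces of about 0.5 cm whose position along the intestine was not given in the sources used here.

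A level below is the log2 of a probe's processed intensity minus the 75th percentile of its array, so it compares one probe between mice and not one gene with another. A difference of 1 on this scale is a doubling. A gene was called when the Benjamini-Hochberg adjusted p of limma, taken over all genes tested, was under 0.05, and limma's standard error (SE) is given with each difference.

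Probe sequences are shown for the 3 genes on which the results below turn, since all levels are what these letters captured (5′ to 3′, lower case, positions in mm9). The Mgam probes are given whole because they were the 2 readings, on the same arrays, of the gene that was called lower in BRAFV600E mice. For the others the first 30 bases are given.
Mgam probe 1, chr6:40687061-40687120: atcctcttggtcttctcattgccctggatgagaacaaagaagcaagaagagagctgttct
Mgam probe 2, chr6:40607491-40608170: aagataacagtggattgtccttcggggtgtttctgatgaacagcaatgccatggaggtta
Lct, start of chr1:130181389-130181448: ctcatttcagggtttgatggtagactcaag
Slc2a5, start of chr4:149517775-149517834: aggccatttgcgaagacacactgagcgtgg
The 60 bases of the second Mgam probe were spread over 680 bases of the genome, so that probe crossed a junction between exons, and the first lay in 1 stretch. Probes of the other genes lay on chromosomes 3 (Sis, Slc2a2), 9 (Treh) and 5 (Slc5a1, Khk).

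The arrays were read before the genes. The 75th percentile of the processed intensity was 525 to 1518 per array, and 60.8 to 76.8% of probes were well above background. All 11 probes of the sugar genes were well above background on 20 of 20 arrays, and none was saturated. All 15 enterocyte markers examined were likewise detected on every array, which is what small intestinal tissue should give. One slide held all Cre controls together with replicates 1 and 2 of BRAFV600E, whose replicates 3 to 6 were on a slide of their own. MEKi and Vehicle arrays shared the remaining slide, with each group in its own row, so row and treatment cannot be told apart there. Replicates are separate mice, each measured on 1 array.

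BRAFV600E replicate 2 and Vehicle replicate 2 stood apart from the rest, through genes chosen after their values were seen. Pdx1, a transcription factor of the duodenum, had levels of 3.10 and 3.72 there, against -4.51 to 1.06 on the other 18 arrays. Among those, BRAFV600E replicates 1 and 5 were at 0.78 and 1.06, above the -3.61 to -1.18 of Cre controls. Cybrd1, which reduces iron for uptake in the duodenum, had levels of 6.48 and 6.29, against -2.99 to -0.31. Slc40a1, the iron exporter, was at 5.01 and 5.50, against -2.39 to 1.00. The list of 8 proximal small intestine genes that holds Pdx1, Cybrd1 and Slc40a1 did not set BRAFV600E replicate 2 apart as a whole. Its summed level was 8.76 there, within the 8.43 to 9.10 of that group. On Vehicle replicate 2 it was 9.29, the highest of its group. The peptidase gene Anpep was at 3.65 and 4.23, against 6.74 to 8.91 elsewhere. On Vehicle replicate 2 the pancreatic enzyme gene Cpa1 was at 8.35, against -6.07 to -2.07 on the 18 arrays, and the summed level of the exocrine pancreas list was 10.9, against -0.32 to -0.09 in the MEKi group. Pancreatic markers were not raised in BRAFV600E replicate 2, since the summed level of that list lay between -0.01 and 0.39 throughout its group. Where leaving out either array changed a call or clearly moved a value, the value without it is given too.

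Among the sugar genes, BRAFV600E mice differed from Cre controls in Mgam, which was called lower, and in no other gene by this test. Lct had the largest difference, with lower levels on every BRAFV600E array, but its spread between mice was wide and it was not called. Of the 8 genes 5 had a lower mean in BRAFV600E mice and 3 a higher one, with a median difference of -0.42 against -0.02 over all genes tested. Across the 19036 genes tested, 6.18% were called higher and 6.26% lower, so 1 of 8 called lower and 0 of 8 called higher were near what the array as a whole gave. In the MEKi group 1 gene, Slc2a5, was called higher than in the Vehicle group and 0 were called lower. All 8 means were higher in the MEKi group, with a median difference of 0.35 against 0.04 over all genes. At an unadjusted limma p under 0.05, 2 sugar genes were lower and 0 higher in BRAFV600E mice, where 15.2% and 15% of all genes were, and 2 were higher and 0 lower in MEKi mice, where 9.12% and 7.25% of all genes were. In the MEKi comparison 1.09% of 19230 genes were called higher and 0.884% lower.

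**Figure D1:**
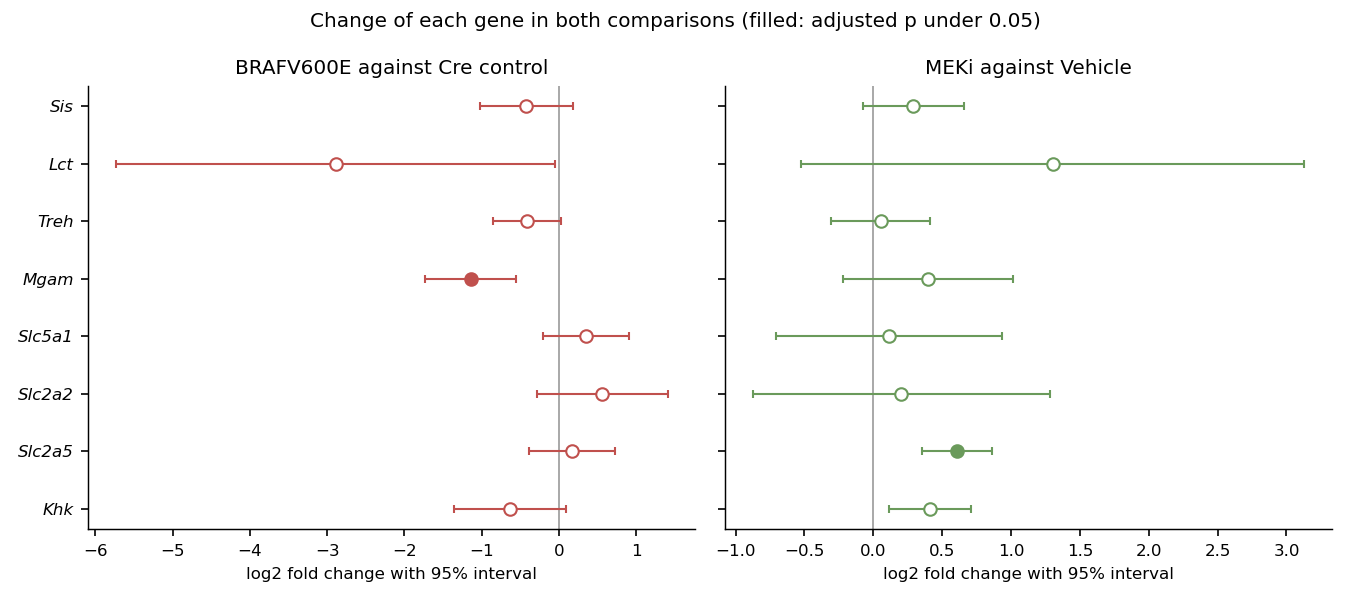
Difference in log2 level for the 8 sugar genes, BRAFV600E minus Cre control and MEKi minus Vehicle, with 95% intervals from limma; filled marks had an adjusted p under 0.05. Mgam (-1.14) was the filled mark of the first comparison and Slc2a5 (0.61) that of the second, while the widest interval, -5.73 to -0.05, was that of Lct.

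Mgam encodes maltase-glucoamylase, which releases glucose from the ends of starch fragments and completes starch digestion together with sucrase-isomaltase. Its level in Cre control mice was 2.47 at the lowest, 3.24 at the median and 3.91 at the highest. In BRAFV600E mice the lowest was 1.71, the median 1.97 and the highest 2.49. The groups met at their edges, since the highest BRAFV600E array lay just above the lowest control, and all other BRAFV600E arrays lay below every control. The difference was -1.14 (SE 0.27, limma adjusted p = 0.0191), which left 45.2% of the control level. By this first probe it was the same on both slides that held BRAFV600E arrays, at -1.15 on the slide shared with the controls and -1.14 on the other. With any 1 of the 12 arrays left out, the mean fell by 1.00 to 1.29 on the log2 scale, with limma adjusted p from 0.0105 to 0.0449.

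The second Mgam probe, designed to another transcript of the gene, read the same direction on the same arrays. It fell by 0.73 (SE 0.21), with an adjusted p of 0.0448 when limma was run over every probe. By this probe the slides differed, at -0.44 on the slide shared with the controls and -0.88 on the other. Control mice themselves varied in this gene, with Cre control replicates 3, 5 and 6 between 3.49 and 3.91 and replicates 1, 2 and 4 between 2.47 and 2.99. The scanner software's slope of the spiked-in control RNA was 0.759 to 0.843 on Cre control replicates 2, 3 and 5 and was listed as 0 on the BRAFV600E arrays of the separate slide, beside values above 1 on the others. Against Cre control replicates 1, 4 and 6 alone the difference was -0.77 with a limma adjusted p of 0.169. When slide was fitted as a block, which leaves BRAFV600E replicates 1 and 2 as the ones compared with controls within a slide, it was -1.15 with a limma adjusted p of 0.0984.

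MEK inhibition left Mgam without a call. Its levels were 1.43, 2.43, 1.43 and 1.70 in the 4 MEKi mice and 1.28, 0.97, 1.82 and 1.33 in the Vehicle mice. These groups overlapped, and the difference was 0.40 (SE 0.27, limma adjusted p = 0.532).

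**Figure D2:**
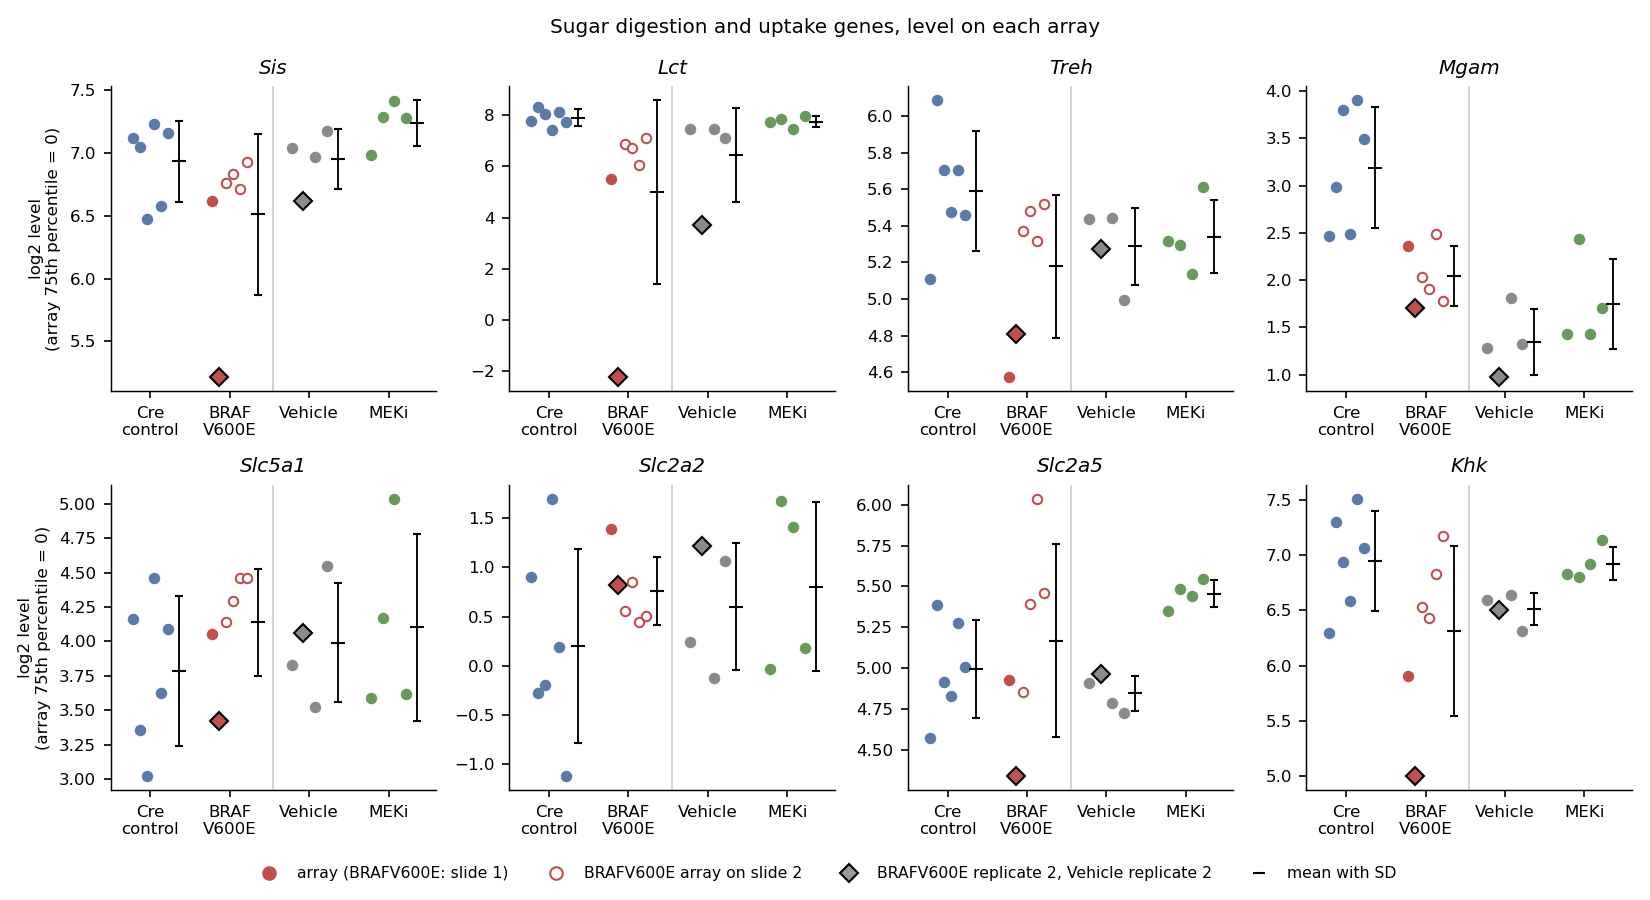
Log2 level (array 75th percentile at 0) of the 8 sugar genes on each of the 20 arrays by group, with dashes and bars for the mean and SD; hollow circles are BRAFV600E arrays on the separate slide and diamonds are BRAFV600E replicate 2 and Vehicle replicate 2. The diamonds sit far below their groups for Lct (-2.23 and 3.70) but not for Slc5a1 or Slc2a2.

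Lct encodes lactase, which splits milk sugar and is normally highest in the middle part of the small intestine. Cre control mice had levels of 7.41 at the lowest, 7.91 at the median and 8.30 at the highest. In BRAFV600E replicates 1 to 6 the levels were 5.49, -2.23, 6.86, 6.73, 6.04 and 7.12. All BRAFV600E arrays lay under all controls, which 3.17% of all genes tested did in this direction and 4.19% in the other. The mean difference was -2.89 (SE 1.31, limma adjusted p = 0.159), with a 95% interval of -5.73 to -0.05. Much of its size and most of its error came from replicate 2. Without that array the difference was -1.45 and limma's adjusted p was 0.0114.

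The slides differed for this gene. BRAFV600E arrays on the control slide averaged 6.26 below the controls and those on the other slide 1.21 below. A fit with slide as a block gave -6.26 (limma adjusted p = 0.0165), which rests on BRAFV600E replicates 1 and 2, the ones that share a slide with controls. Replicate 1 alone, left when replicate 2 was taken out of that fit, gave -2.40, a value from 1 mouse. Markers of intestinal position differed in the same mice. The distal small intestine list had a summed level of 3.46 to 5.78 in BRAFV600E mice against 6.49 to 6.96 in controls, with 3 of its 7 genes called lower and a median difference of -1.08. Cubn, an uptake protein in that list, was at -4.95 to 0.63 in BRAFV600E mice and 4.10 to 4.48 in controls. Its difference was -5.31 (limma adjusted p = 0.00119), and the call was kept in 27 of 27 alternatives. Slc5a12, another uptake protein, was at -7.27 to 0.74 in BRAFV600E mice and 2.33 to 3.69 in controls. Both were lowest on BRAFV600E replicate 2, and their probes were well above background on 19 and 18 of the 20 arrays. Of the other genes of that list, Fabp6 and Slc10a2 of the ileum differed by 0.83 (limma adjusted p = 0.0930) and -0.03 (limma adjusted p = 0.973). Slc51a, Slc51b and Nr1h4 were at 41.6%, 47.3% and 72.6% of the control level. The proximal list had 1 of 8 genes called higher, 1 called lower and a median difference of 0.52, with summed levels of 8.43 to 9.10 in BRAFV600E mice and 8.44 to 9.25 in controls. The part of intestinal position in the Lct values was not tested.

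Lct in the MEKi mice was at 7.72, 7.83, 7.44 and 7.95. In the Vehicle mice it was at 7.47, 3.70, 7.46 and 7.10. One array set the difference of 1.30 (SE 0.80, limma adjusted p = 0.485). It came to 0.39 without Vehicle replicate 2, the array with pancreatic and duodenal transcripts, and limma's adjusted p was then 0.312. The ileal markers Slc10a2 and Fabp6 also set the other Vehicle mice apart from the MEKi mice. Slc51a, Slc51b and Nr1h4 of the distal list were at 1.36, 1.38 and 0.78 times the Vehicle level in MEKi mice. Cubn and Slc5a12 of that list had higher means in MEKi mice, opposite to Slc10a2 and Fabp6. Cubn was at 2.61 to 4.48 in MEKi mice and at -3.43 to 2.65 in Vehicle mice. Slc5a12 was at 2.54 to 3.34 and at -4.05 to 2.24, without overlap. Both were lowest on Vehicle replicate 2. The summed level of the distal list was 6.38 to 7.26 in MEKi mice and 5.42 to 6.66 in Vehicle mice. Slc10a2, the ileal bile acid transporter, was at -0.21, -3.73, 1.095 and -0.90 in Vehicle mice and at -4.37 to -3.60 in MEKi mice. Fabp6, the ileal bile acid binding protein, was at 3.76, -2.01, 2.91 and 1.35 in Vehicle mice and at -1.72 to 0.45 in MEKi mice. Like the rest of the distal list, neither Slc10a2 nor Fabp6 was called (limma adjusted p = 0.151 and 0.441). The part of intestinal position in this or any other MEKi difference, Slc2a5 included, was not tested.

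**Figure D3:**
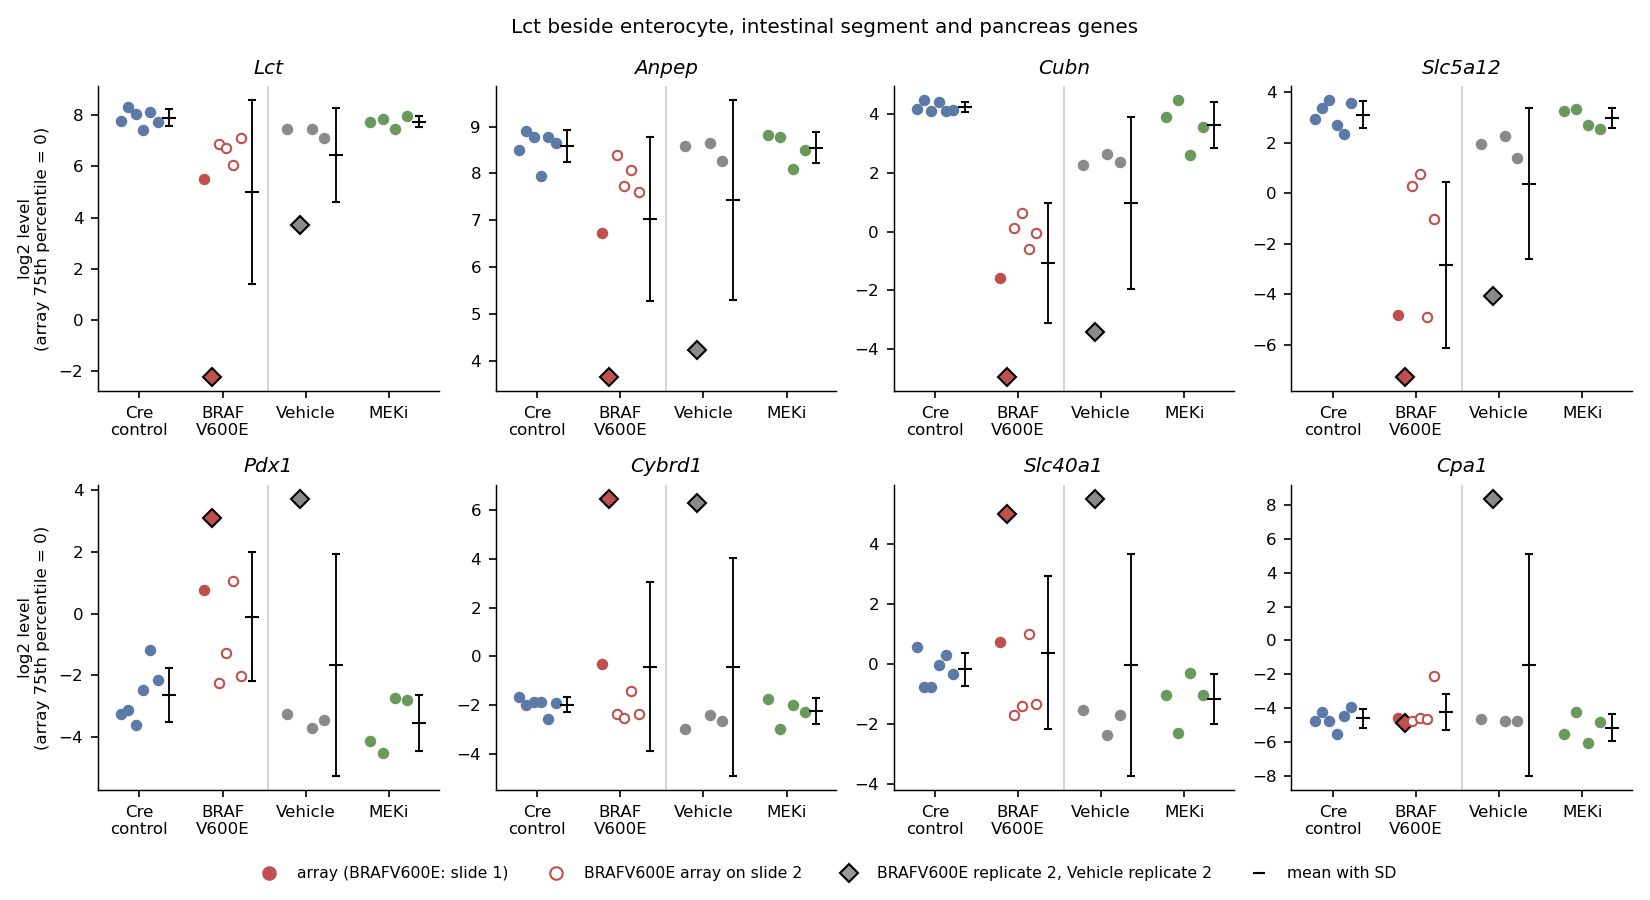
Log2 level of Lct and of 7 genes that mark enterocytes, stretches of the gut or pancreas, on each array by group, with BRAFV600E replicate 2 and Vehicle replicate 2 as diamonds. Both diamonds are low for Lct and Anpep and high for Pdx1, Cybrd1 and Slc40a1, and the Vehicle diamond alone is high for Cpa1 (8.35).

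Sis encodes sucrase-isomaltase, which splits sucrose and most of the branched ends of starch. Its level was 6.47, 7.08 and 7.23 at the lowest, median and highest in Cre control mice, and 5.21, 6.74 and 6.93 in BRAFV600E mice. The ranges overlapped and the difference was -0.42 (SE 0.28, limma adjusted p = 0.326). Without BRAFV600E replicate 2, the lowest array, it was -0.16 (SE 0.17, limma adjusted p = 0.562). A second probe, designed to another transcript of the gene, gave -0.82 (adjusted p = 0.0590 over every probe by limma). MEKi mice were at 6.98, 7.29, 7.41 and 7.28 and Vehicle mice at 7.04, 6.62, 6.97 and 7.18, a difference of 0.29 (SE 0.16, limma adjusted p = 0.431) that was 0.18 without Vehicle replicate 2.

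Treh encodes trehalase, which splits the disaccharide of fungi and insects. It ranged from 5.11 to 6.09 in Cre control mice (median 5.59) and from 4.57 to 5.52 in BRAFV600E mice (median 5.34). The difference of -0.41 (SE 0.21) was not called, with a limma adjusted p of 0.198. With slide as a block it was -0.90 and limma's adjusted p was 0.0295. The value was -1.02 with replicate 2 taken out of that fit, which leaves 1 BRAFV600E mouse to compare. MEKi and Vehicle mice overlapped, at 5.14 to 5.61 and 5.00 to 5.44, with a difference of 0.05 (limma adjusted p = 0.913).

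The brush border enzymes can be set beside other products of the same cells. Of 15 enterocyte markers, 12 had lower means in BRAFV600E mice, with a median difference of -0.43, beside -0.42 for the sugar genes. None of these markers was called lower, and 4 were lower at an unadjusted limma p under 0.05. Alpi, which encodes intestinal alkaline phosphatase of the same membrane, was called higher, at 3.77 to 4.64 in controls and 5.38 to 7.23 in BRAFV600E mice (difference 1.84, limma adjusted p = 0.00225). In bulk tissue, fewer cells of a type and less RNA per cell cannot be told apart, and this holds for every level given here. The structural gene Vil1 of the microvillus differed by -0.05 (limma adjusted p = 0.880).

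Slc5a1 encodes SGLT1, the sodium-coupled transporter that carries glucose and galactose into the enterocyte. The level in Cre control mice was 3.02 to 4.46 with a median of 3.86, and in BRAFV600E mice 3.42 to 4.46 with a median of 4.22. The controls' range covered that of the BRAFV600E mice, and the difference was 0.35 with a 95% interval of -0.21 to 0.91 (SE 0.26, limma adjusted p = 0.389). MEKi mice at 3.59 to 5.04 and Vehicle mice at 3.52 to 4.55 overlapped too, with a difference of 0.11 (SE 0.36, limma adjusted p = 0.920).

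Slc2a2 encodes GLUT2, through which glucose, galactose and fructose leave the cell toward the blood. Control mice spread widely, from -1.12 to 1.70 around a median of -0.0037. The 6 BRAFV600E mice lay within that range, at 0.45 to 1.38 with a median of 0.69. A difference of 0.56 (SE 0.39, limma adjusted p = 0.358) was within this spread, with a 95% interval of -0.28 to 1.40. In the MEKi comparison the difference was 0.20 (SE 0.47, limma adjusted p = 0.888), with an interval of -0.87 to 1.28, and it was 0.41 without Vehicle replicate 2.

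Slc2a5 encodes GLUT5, the fructose transporter of the apical membrane. In the 4 MEKi mice its level was 5.35, 5.48, 5.44 and 5.55. The 4 Vehicle mice had levels of 4.91, 4.96, 4.79 and 4.73. Every MEKi mouse was above every Vehicle mouse, and both groups were tight, with SDs of 0.08 and 0.11. The difference was 0.61 (SE 0.11, 95% interval 0.35 to 0.87, limma adjusted p = 0.0387), a ratio of 1.52. Groups that did not overlap were common in this small comparison, at 6.44% of genes in this direction and 5.75% in the other, and 2 of the sugar genes, Slc2a5 and Khk, were among them.

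The size of the Slc2a5 difference hardly depended on the processing, but its call did. Over 19 alternatives the value stayed between 0.57 and 0.66, and 15 of them brought limma's adjusted p above the threshold, among them every fit with 1 array left out (0.0509 to 0.118). The Y-linked list had a summed level of 1.36 to 1.63 in MEKi mice. In Vehicle mice it was 1.53 and 1.48 on replicates 1 and 3 and -1.53 and -1.92 on replicates 2 and 4. Sex, as read from these genes, was thus not balanced between the MEKi and Vehicle groups. With that level as a covariate the difference was 0.60 and limma's adjusted p was 0.152. In BRAFV600E mice Slc2a5 ranged from 4.34 to 6.04 around a median of 5.16, and in Cre controls from 4.57 to 5.38 around 4.96. Those groups overlapped, and the difference was 0.17 (SE 0.26, limma adjusted p = 0.699), or 0.34 without BRAFV600E replicate 2 (limma adjusted p = 0.367).

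**Figure D4:**
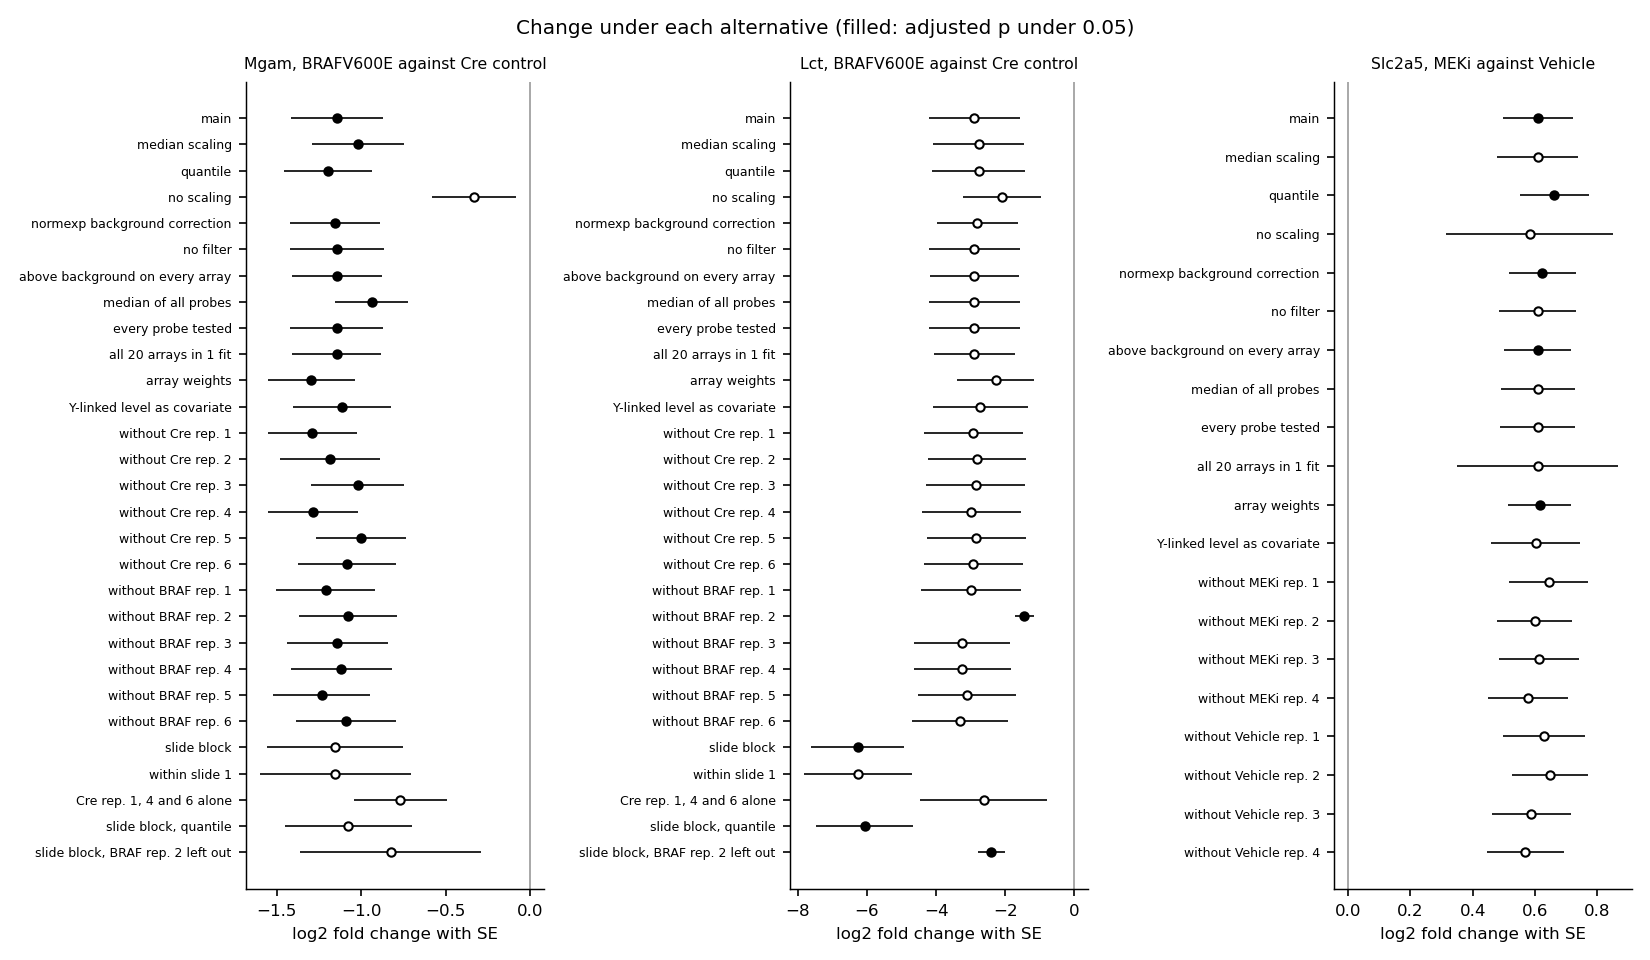
Difference in log2 level with its SE under each way of processing, for Mgam and Lct (BRAFV600E minus Cre control) and Slc2a5 (MEKi minus Vehicle). Slc2a5 holds between 0.57 and 0.66, Mgam shrinks to -0.34 with no scaling between arrays, and Lct runs from -6.26 to -1.45.

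Khk encodes ketohexokinase, which phosphorylates fructose once it is inside the cell. Its levels in Cre control mice were 6.29, 7.00 and 7.51 at the lowest, median and highest, and in BRAFV600E mice 5.00, 6.48 and 7.17. These ranges overlapped, and the difference of -0.64 (SE 0.33) had a limma adjusted p of 0.222. Without BRAFV600E replicate 2, at 5.00, it was -0.37 (SE 0.26, limma adjusted p = 0.386). Fitting slide as a block gave -1.49, with an adjusted p of 0.0217 by limma. Replicate 1, which is the 1 BRAFV600E mouse left beside the controls on their slide without replicate 2, differed from them by -1.04 in that fit. MEKi mice were at 6.83, 6.80, 6.92 and 7.13, all above the Vehicle mice at 6.59, 6.50, 6.64 and 6.31. That difference was 0.41 (SE 0.13) and was not called, with a limma adjusted p of 0.170. A second Khk probe, elsewhere in the gene, differed by 0.14 and 0.05 in the BRAFV600E and MEKi comparisons.

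The MEKi and BRAFV600E comparisons shared no arrays, and whether a sugar gene differed more in one than in the other was not tested.

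Other genes of sugar handling were taken from lists chosen with earlier results of these data known. Among 16 other sugar transporters, 12 had lower means in BRAFV600E mice (median -0.63), 3 were called lower and 1 higher. The one called higher was Slc2a1, which encodes GLUT1, the widely expressed glucose transporter that is scarce in mature enterocytes. It lay at 0.21 to 0.72 in Cre control mice and at 2.08 to 2.61 in BRAFV600E mice, with no overlap. The difference was 1.83 (SE 0.14, limma adjusted p = 1.6e-05), 3.57 times the control level, and the call was kept in 28 of 28 alternatives. In MEKi mice it was at 0.33 to 0.89 and in Vehicle mice at 1.95 to 2.31, a difference of -1.40 (SE 0.16, limma adjusted p = 0.00835), with the call kept in 18 of 19 alternatives.

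Slc2a7 encodes GLUT7, an apical transporter of the intestine. Its level was -0.77 to -0.01 in controls and -1.58 to -0.63 in BRAFV600E mice, a difference of -0.69 (SE 0.18, limma adjusted p = 0.0284). It was -0.49 to 0.33 in MEKi mice and -1.70 to -1.22 in Vehicle mice, which did not overlap, a difference of 1.34 (SE 0.21, limma adjusted p = 0.0228). Of the 16 transporters, Slc2a7 and Slc2a1 were the ones called in the MEKi comparison. Without BRAFV600E replicate 2 the Slc2a7 difference in the first comparison was -0.58, with a limma adjusted p of 0.0523. Over 28 alternatives that call was lost in 9, and the difference changed sign in 1 more. The Slc2a7 call in the MEKi comparison was lost in 6 of 19 alternatives.

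Slc5a11, a sodium-coupled carrier of myo-inositol, was called lower in BRAFV600E mice. Its level was 4.56 to 5.50 in controls and -1.43 to 3.94 in BRAFV600E mice, without overlap. The difference was -2.51 (SE 0.75, limma adjusted p = 0.0472), and without replicate 2 it was -1.72 with a limma adjusted p of 0.00578. Over 28 alternatives the Slc5a11 call was lost in 15. Slc5a4b, a relative of SGLT1 in the same gene family, differed by -1.67 (SE 0.48, limma adjusted p = 0.0417), and by -1.29 without replicate 2, where limma's adjusted p was 0.0590. Its call was also lost in 15 of 28 alternatives.

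**Figure D5:**
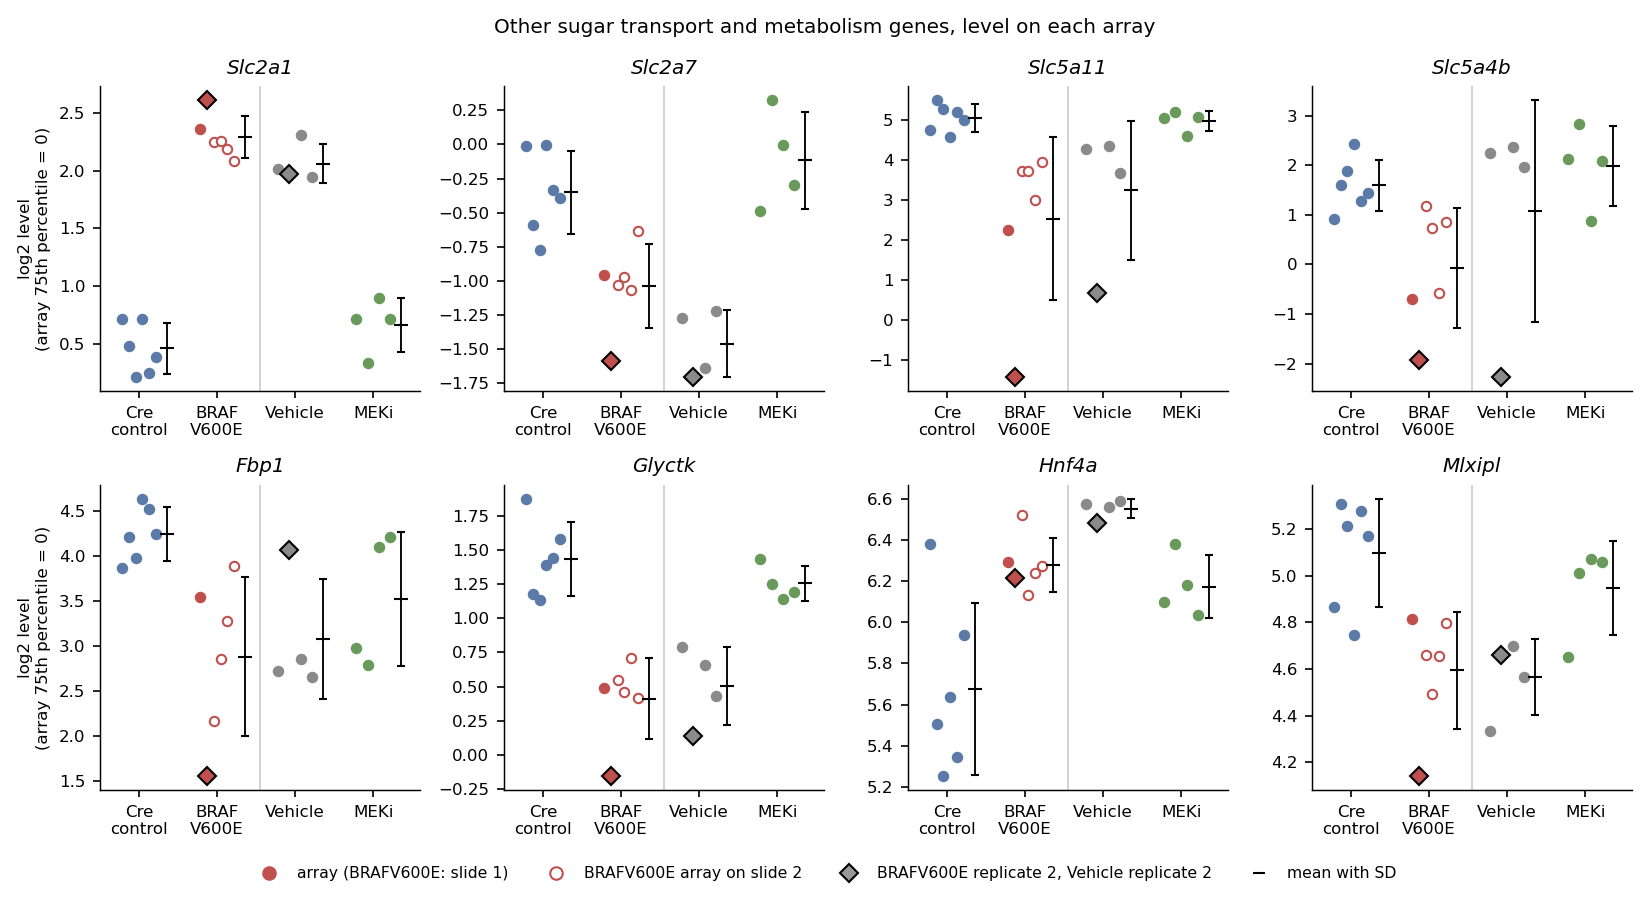
Log2 level of 8 other genes of sugar handling that passed the test in at least one comparison, on each array by group, with the mean and SD; marks are as in the plot of the sugar genes by sample. Slc2a1 is high in the BRAFV600E (2.08 to 2.61) and Vehicle groups (1.95 to 2.31) and low in the Cre control and MEKi groups, and the BRAFV600E and Cre control groups do not overlap for Slc5a11 and Glyctk.

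Inside the cell, 17 genes of fructose, galactose and glucose handling were tested, of which 0 were called higher and 2 lower in BRAFV600E mice and 0 in MEKi mice. At an unadjusted limma p under 0.05, 1 was higher and 2 lower in BRAFV600E mice, and 2 were higher and 1 lower in MEKi mice. Glyctk, the kinase that takes up glycerate at the end of fructose breakdown, fell from 1.13 to 1.87 in controls to -0.15 to 0.71, a difference of -1.02 (SE 0.17, limma adjusted p = 0.00338). In MEKi mice it was at 1.14 to 1.43 and in Vehicle mice at 0.14 to 0.79, which did not overlap, though the difference of 0.75 had a limma adjusted p of 0.0652. Fbp1, a gluconeogenic phosphatase, differed by -1.36 (SE 0.35, limma adjusted p = 0.0257) in BRAFV600E mice, and by -1.10 without replicate 2 (limma adjusted p = 0.0347). The Fbp1 call was lost in 8 of 28 alternatives.

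Tkfc, the triokinase of fructose breakdown, differed by 0.04 between BRAFV600E and Cre control mice (limma adjusted p = 0.910; 0.15 without replicate 2) and by 0.07 between MEKi and Vehicle mice (limma adjusted p = 0.890). Among the other starch and sugar hydrolases 4 genes were tested in BRAFV600E mice and 5 in MEKi mice, and 0 were called in each by limma, nor did any have an unadjusted p under 0.05. The amylase genes were prominent on one array only, with levels of 8.41 for Amy2a5 and 7.73 for Amy1 on Vehicle replicate 2, where the pancreatic list was high as well.

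Of 15 regulators of sugar genes, 2 were called higher and 1 lower in BRAFV600E mice. The transcription factors Hnf4a and Gata4 differed by 0.60 (SE 0.18, limma adjusted p = 0.0485) and 0.49 (SE 0.13, limma adjusted p = 0.0334). Mlxipl, which encodes the sugar-sensing factor ChREBP, differed by -0.50 (SE 0.15, limma adjusted p = 0.0488). Without BRAFV600E replicate 2 these 3 calls were lost, with limma adjusted p of 0.0756, 0.0685 and 0.0886, while the differences were 0.62, 0.44 and -0.41. Over 28 alternatives the calls of Hnf4a, Gata4 and Mlxipl were lost in 20, 16 and 20, and Mlxipl changed sign in 1 more. Cdx2 differed by -0.20 (limma adjusted p = 0.618), or -0.01 without replicate 2, and was not called. In MEKi mice 0 of these 15 regulators were called by limma, with 2 higher and 4 lower at an unadjusted p under 0.05. There Hnf4a was at 6.03 to 6.38 in MEKi mice and at 6.48 to 6.59 in Vehicle mice, which did not overlap, a difference of -0.38 (SE 0.12, limma adjusted p = 0.162).

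Mice of one group also differed among themselves, and the sugar genes did not move as 1 block. For each of the 28 pairs of genes, levels were centred on the mean of each group and slide and correlated over the 20 arrays, with p from 100000 permutations within those sets and Benjamini-Hochberg adjustment over the pairs. Pearson's r ran from -0.72 to 0.73 and was positive for 16 pairs, and 0 pairs had an adjusted p under 0.05. By Spearman's rho 3 pairs had one. Slc2a5 and Khk, the transporter and the kinase of fructose, varied together (rho = 0.78, permutation adjusted p = 0.0244; r = 0.71, permutation adjusted p = 0.0973). Without the 2 arrays farthest from the median of the first gene, r was 0.87.

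Sis and Slc5a1 were related in the same sense (rho = 0.74, permutation adjusted p = 0.0161; r = 0.59, permutation adjusted p = 0.0973), with r = 0.63 without the 2 farthest arrays. Treh and Slc5a1 ran opposite ways (rho = -0.79, permutation adjusted p = 0.0161; r = -0.72, permutation adjusted p = 0.0973), with r = -0.79 without the 2 farthest. With Cre control replicates 2, 3 and 5 left out, 0 of the 28 pairs had an adjusted p under 0.05 by either measure on the 17 arrays that remained. There rho was 0.75 for Slc2a5 and Khk, 0.63 for Sis and Slc5a1 and -0.57 for Treh and Slc5a1. Without BRAFV600E replicate 2 and Vehicle replicate 2, 3 pairs passed by Pearson's r and 4 by Spearman's rho. Sis and Lct had r = 0.73 on all arrays, 0.30 without the 2 arrays farthest from the median and -0.30 without BRAFV600E replicate 2 and Vehicle replicate 2.

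The genes most like each sugar gene were sought among 18357 genes on the same centred levels, as a description without a test. Lct was most like Guca2b, which encodes the gut peptide uroguanylin (r = 0.95 over 20 arrays), and Plekhf1 (r = 0.95), followed by Slc5a11 (r = 0.94). Without BRAFV600E replicate 2 and Vehicle replicate 2 the first 2 fell to 0.56 and 0.44, while Slc5a11 was at 0.95. The profile of Khk was nearest to Pkm, the pyruvate kinase of glycolysis (r = 0.93), Prkag2, a subunit of the energy-sensing kinase AMPK (r = 0.90), and Slc37a4, the glucose-6-phosphate transporter (r = 0.90). Mgam was nearest to Entpd7 (r = 0.90), Speer4c (r = 0.87) and Pde4c (r = 0.86). For Sis the leading gene was Pgam1, an enzyme of glycolysis (r = 0.86), for Treh the sarcosine dehydrogenase gene Sardh (r = 0.92), and for Slc5a1 the lysosomal enzyme gene Aga (r = 0.90). Slc2a2 was nearest to Washc4 (r = 0.90) and Slc2a5 to Tmem38a (r = 0.84).

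The promoters of all 8 genes were in the RefSeq table used (build GRCm38.p6), as 250 bases before to 50 after each start. Both strands were searched for short letters that known regulators of these genes can bind. The letters of Lct and Mgam, which had the largest differences in BRAFV600E mice, are shown up to the start of transcription, with matches in capitals.
Lct, chr1:128328319-128328568, minus strand: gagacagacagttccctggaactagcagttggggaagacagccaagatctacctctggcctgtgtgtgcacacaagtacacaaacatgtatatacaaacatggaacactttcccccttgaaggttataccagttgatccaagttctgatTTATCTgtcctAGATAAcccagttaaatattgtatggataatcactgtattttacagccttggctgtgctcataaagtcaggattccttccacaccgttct
Mgam, chr6:40628581-40628830, plus strand: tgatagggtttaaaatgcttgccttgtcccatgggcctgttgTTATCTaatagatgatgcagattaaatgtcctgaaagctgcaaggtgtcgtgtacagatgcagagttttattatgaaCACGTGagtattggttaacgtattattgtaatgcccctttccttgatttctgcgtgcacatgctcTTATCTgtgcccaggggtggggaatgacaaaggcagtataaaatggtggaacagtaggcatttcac
Both held 2 matches to AGATAA, the core bound by GATA factors, in Lct as a pair on opposite strands 101 and 90 bases before the start and in Mgam at 208 and 66 bases. No other sugar gene held it, and 2 of 8 stand beside 11.2% of the 32851 promoters in the table. The E-box core CACGTG occurred in Mgam 131 bases before the start, in Slc5a1 at 143 and in Khk at 71, and in 7.15% of all promoters. The HNF4 letters CAAAGTCCA occurred in Treh at 71 bases and in 0.475% of all promoters. The CDX letters TTTATGG occurred in 0 of the 8 and in 2.75% of all promoters. None of these matches overlapped another, and a match is a description of the sequence alone.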

How the data were processed

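Small intestinal RNA of 20 mice was measured on 1-colour Agilent mouse arrays, 1 array a mouse. Per the file headers the authors deposited scanner output of Agilent Feature Extraction 10.5.1.1, in which the processed signal is an intensity after background subtraction, with 0 or 1 marks that the authors' scanner software deposited for well above background, saturation and outlier spots. The deposited value table equalled the processed intensity within 0.5% on 100% of spots and served as the setting without scaling. Outlier spots were left out, spots of a probe were averaged, and log2 of the intensity minus the array's 75th percentile was tested. Probe names were updated through RefSeq (GRCm38.p6): 34023 probes by accession, 9993 by symbol and 318 by synonym, with 12271 unnamed. Probe coordinates are those of the files (mm9).

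Each comparison was fitted by limma 3.58.1 in R 4.3.3 (lmFit and eBayes; the study used limma 3.50.1) over the probe with the highest mean for each gene, well above background on at least 6 of 12 or 4 of 8 arrays. Benjamini-Hochberg adjustment ran over all genes tested. The method was tested on simulated data. The sugar genes and the gene lists were chosen with earlier results of these data known. All sugar genes are named; of the other lists, genes called in either comparison (at most 6 per list and comparison) and a few set genes; and for each sugar gene the 3 most correlated genes. Some genes of these lists are not reported here and stand in no list count. Alternatives covered scaling, background correction, filter, probe choice, array weights, arrays in the fit, slide, a Y-linked covariate and leaving out each array. The fits on Cre control replicates 1, 4 and 6, those joining the slide block with another choice, and the relations with arrays left out were added after seeing the data. The labels' treatment text was the same on all 20 samples and matched no group, so it was not used.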

Additional observations from a re-analysis of the deposited data

Results flagged for a closer look

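In each group, the highest and lowest array of each of the 11 sugar gene probes was examined for a gap to its nearest neighbour that took up most of the group's range, a rule that chance meets in about 1 in 20 sets. Of 44 sets 3 met it, and all 3 came from the 2 arrays with raised duodenal transcripts. Lct on BRAFV600E replicate 2 was at -2.23, with the nearest array of its group at 5.49, a gap of 0.826 of the range. Lct on Vehicle replicate 2 was at 3.70, with the nearest at 7.10 and a gap of 0.903 of the range. Sis on BRAFV600E replicate 2 was at 5.21, with the nearest at 6.62 and a gap of 0.817 of the range. The part of intestinal position or of other tissue in these 3 values was not tested.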

How the results depend on the processing

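The number of genes called in the BRAFV600E comparison (2369) was 9334 with no scaling, 4640 with normexp, 3746 with array weights, 1535 with slide as a block, 734 within slide 1, 426 on Cre control replicates 1, 4 and 6, 214 with the block and BRAFV600E replicate 2 left out (1 BRAFV600E array beside the controls, assumed to vary like the others), and 1442 to 2860 with 1 array left out. The share called higher was 49.7%, but 73.6% with median scaling, 98.1% with no scaling (which moved the median of all genes to 0.79), 34.2% with normexp, 30.2% with the slide block and 26.3% within slide 1. Of the sugar genes (1 called lower) 0 were called lower with no scaling, within slide 1 and on Cre control replicates 1, 4 and 6, 3 with the slide block and with the block under quantile normalization, and 1 to 2 with 1 array left out, the 2 being without BRAFV600E replicate 2. With no scaling 3 were called higher, namely Slc5a1 (1.16), Slc2a2 (1.37) and Slc2a5 (0.98), and Mgam was -0.34 (limma adjusted p = 0.250). No scaling also turned Slc2a7 to 0.12 and Mlxipl to 0.31. In the MEKi comparison the count (380) was 72 with no scaling, 234 with no filter, 1211 with array weights, 53 with the Y-linked covariate and 76 to 376 with 1 array left out. The 1 sugar gene called there became 0 with median scaling, no scaling, no filter, the median of all probes, every probe tested, all 20 arrays in 1 fit, the covariate and any array left out (0 to 0). Pairs of sugar genes passing by Pearson's r went from 0 to 3 without BRAFV600E replicate 2 and Vehicle replicate 2, and by Spearman's rho from 3 to 0 without Cre control replicates 2, 3 and 5. The causes were not tested. No paired analysis was possible because the replicate numbers only name the mice. Signal over background limited none of the 11 probes; the number of arrays limits precision.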
